A study of Coturnix japonica with 54 samples.

Results

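Japanese quail (Coturnix japonica), all males, on a shortening, autumn-like day were compared with birds on a lengthening, spring-like day in the RNA of the pituitary gland, with every day length set against itself. The members were chosen by the treatment label alone and number 48 of the 54 birds sequenced. The 24 birds of the autumn arm were labelled 16La, 14La, 12La and 10La, and the 24 birds of the spring arm 10Lv, 12Lv, 14Lv and 16Lv, with 6 birds at each. The number is the hours of light per day, a marks the decline, with its start at 16 h, and v the rise. The 6 birds of the shortest day, 8L, have no counterpart in the other arm and were left out. All birds began on 16 h of light and were moved by 2 h at a time, down and then up, spending 2 weeks on every day length, so the groups share sex, species and starting photoperiod. Autumn birds were sampled before spring birds, by 4 weeks at 10 h, 8 weeks at 12 h, 12 weeks at 14 h and 16 weeks at 16 h of light. The 16La birds were sampled on the starting photoperiod, before any shorter day. At 16 h, birds before the whole cycle are thus set against birds after it. The direction of the change, the time of sampling, the age of the bird and the number of steps it had lived through cannot be told apart. Each library came from 1 bird, and the birds taken at a step were chosen partly by body mass.

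Quail are long-day breeders, and the pituitary carries the response to day length to the gonads. Gonadotrophs secrete follicle-stimulating hormone and luteinising hormone, each made of a shared alpha subunit, encoded by CGA, and a beta subunit of its own. Light is read in the hypothalamus, where local thyroid hormone activation on long days leads to release of gonadotropin-releasing hormone onto these cells. Birds can also respond differently to the same day length depending on the day lengths they lived on before, and the comparison of the arms asks how far the pituitary transcriptome does so.

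Spring libraries were shallower than autumn libraries, which touches every comparison here. A library total is the sum over genes of the count of the gene's largest transcript. It was 31857 ± 16696 (SD, n = 24) in the autumn arm, from 6868 to 77713, and 16348 ± 11285 (SD, n = 24) in the spring arm, from 2815 to 45205. The difference was -15509 counts (two-sided permutation test, p = 0.00039, adjusted p = 0.00117 over 3 library measures). Genes detected fell from 5529 ± 2148 to 3717 ± 2097 (SD, n = 24 each; permutation test, adjusted p = 0.0094). Within single day lengths the total was lower in spring at all 4, and none of 12 exact permutation tests of library measures passed after adjustment (lowest adjusted p = 0.156, for the total at 16 h). LOC107307159, a protein-coding locus next to MITD1, held the largest share of counts, 24.3% ± 10.1 in autumn and 24.4% ± 9.54 in spring (SD, n = 24 each; permutation test, adjusted p = 0.978). The pituitary hormone genes PRL, POMC and CGA were detected in all 48 birds. Entered as a term of the model, the log2 library total was past the threshold for 58 of 1339 genes (4.33%), of which 57 were higher in deeper libraries. In most photoperiods the bird with the highest number in its label stood apart. It had the fewest genes detected in 5 of 8 photoperiods and the highest share of LOC107307159 in 7 of 8, with a median share of 41.6% over these 8 birds against 19.9% over the other 40. Each arm holds 4 of them.

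**Figure D1:**
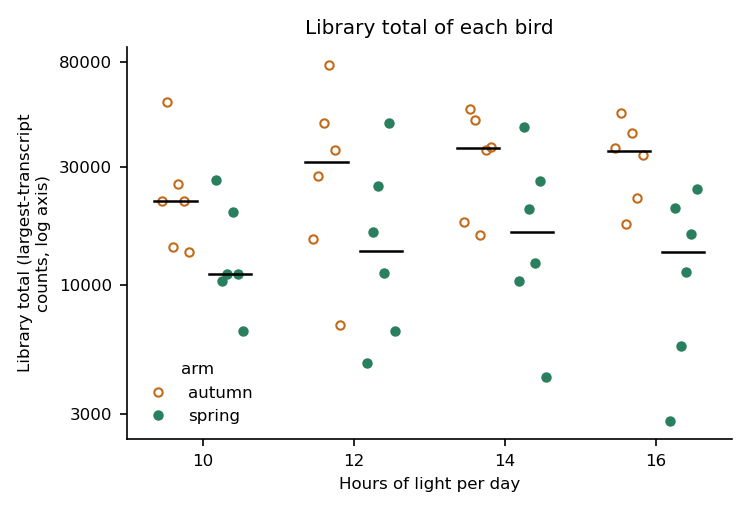
Library total of each bird (largest-transcript counts, log axis) by hours of light, autumn birds as open and spring birds as filled circles, with a black bar at the median of 6 birds. At each of the 4 day lengths the spring median lies below the autumn median, and the ranges overlap.

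Across the whole arms few genes differed. With day length as a block, 2 of 1339 genes tested passed an adjusted p of 0.05 (0.149%), and both were lower in spring. They are LOC107325039 and LOC107318455, protein-coding loci without a gene name in the annotation. No gene was higher in spring past this threshold, and 11 genes (0.822%) were higher against 94 (7.02%) lower at an unadjusted p under 0.05 in edgeR's quasi-likelihood test. That lean depends on the scaling. The median log2 fold change over all genes was -0.14, with 921 of 1339 genes below 0, whereas it was 0.00 with RLE scaling, where 29 genes were higher and 30 lower at an unadjusted p under 0.05. Without a scaling factor the median was 0.07, with 51 higher and 19 lower.

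**Figure D2:**
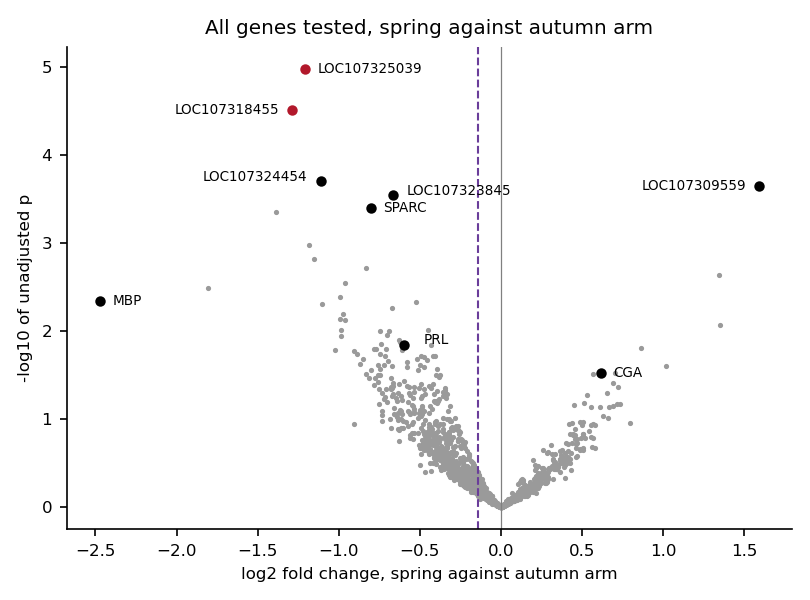
Log2 fold change of the spring against the autumn arm (x axis) and -log10 of the unadjusted p (y axis) for the 1339 genes tested, with 1 point per gene. Red points mark the 2 genes past the adjusted threshold, black points other genes named in the text, and the dashed line the median of all genes at -0.14.

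LOC107325039 was one of the most abundant transcripts of the gland and was lower in spring at every day length. It lies between RDM1 and CD79B in the RefSeq gene order of the Coturnix japonica 2.1 assembly. Over the arms its level was 18102 ± 8650.0 counts per 1000000 counts of the library (CPM) in autumn and 9324 ± 7381 CPM in spring (SD, n = 24 each). In autumn the lowest, median and highest bird had 2507, 21487 and 31079 CPM at 10 h of light, 4950.5, 21019 and 26286 CPM at 12 h, 5956, 13672 and 41139.6 CPM at 14 h, and 12842, 17429.8 and 24189 CPM at 16 h. In spring these were 1533, 7224 and 17715 CPM at 10 h, 1997, 8797 and 29631 CPM at 12 h, 3058, 10001 and 19872 CPM at 14 h, and 710.5, 3599.8 and 18994 CPM at 16 h. The spring median was the lower at all 4 day lengths, and 20 of 24 spring birds lay below the autumn median of their own day length. The ranges overlapped at each, most clearly at 12 h, where a single spring bird stood above every autumn bird, and least at 16 h, where 5 of 6 spring birds lay below all autumn birds. The log2 fold change was -1.21 ± 0.26 (SE; edgeR quasi-likelihood test, adjusted p = 0.0142). By day length it was -1.34 ± 0.55 at 10 h, -1.07 ± 0.55 at 12 h, -0.87 ± 0.55 at 14 h and -1.57 ± 0.56 at 16 h (SE), and these did not differ detectably (interaction adjusted p = 0.999). None of the 4 passed when tested at its own day length (edgeR, adjusted p from 0.635 to 0.994).

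Depth moves with this result. With the log2 library total as a covariate the fold change of LOC107325039 was -0.92 and did not pass (adjusted p = 0.763), while among 11 autumn and 15 spring libraries of matched depth, with mean totals of 19515 and 17506, it was -1.29 and passed (adjusted p = 0.0234). Its own slope on depth was 0.32 log2 units per doubling of the total (adjusted p = 0.209). The call was also lost with RLE scaling (-1.01, adjusted p = 0.167), without a scaling factor (-0.97, 0.274) and with DESeq2 (-1.02, 0.0975), in each case with the same sign. LOC107325039 was lowest in the highest-numbered bird in 5 of 8 photoperiods, and without these 8 birds its fold change was -1.18 and passed (adjusted p = 0.0161). Over 19 alternatives other than single birds left out, its adjusted p ran from 6.08e-07 to 0.763 and passed in 11.

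LOC107318455 was a low-abundance gene that was lower in spring by a similar factor. It was detected in 22 autumn and 16 spring birds, with 165 counts in the autumn arm and 38 in the spring arm. Its level was 218 ± 155 CPM in autumn and 101.5 ± 110.3 CPM in spring (SD, n = 24 each). In autumn the lowest, median and highest bird had 0, 161 and 319 CPM at 10 h, 116, 139 and 579 CPM at 12 h, 0, 115 and 444 CPM at 14 h, and 148, 298 and 461 CPM at 16 h. In spring these were 0, 44.2 and 386 CPM at 10 h, 0, 55.3 and 207 CPM at 12 h, 0, 97.6 and 243 CPM at 14 h, and 0, 124 and 351 CPM at 16 h. At 12 h and at 16 h, 4 of 6 spring birds lay below every autumn bird, and at 10 h and 14 h the arms shared most of their range. Shallow libraries limit this: 12Lv replicate 6 and 16Lv replicate 1, both at 0, had totals of 6509 and 2815. In either, 1 count would have exceeded the lowest autumn bird of its day length, so a bird at 0 there could only fall below. In all, 19 of 24 spring birds lay below the autumn median of their day length. The log2 fold change was -1.29 ± 0.30 (SE; edgeR, adjusted p = 0.0209), from -1.84 ± 0.62 at 12 h to -0.87 ± 0.59 at 14 h (SE). It passed at no single day length (edgeR, adjusted p from 0.341 to 0.994). The results below are for the whole arms. The adjusted p was 0.104 with the library total as a covariate, 0.316 at matched depth, 0.167 with RLE scaling and 0.153 with DESeq2, and the call was lost when any 1 of 6 birds was left out (12La replicates 2 and 5, 14La replicates 1 and 5, 16La replicate 4 and 12Lv replicate 3; highest adjusted p = 0.076). Without the highest-numbered birds the fold change was -1.41 (adjusted p = 0.0161). Over 18 alternatives other than single birds left out, the adjusted p ran from 0.0022 to 0.537 and passed in 8.

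**Figure D3:**
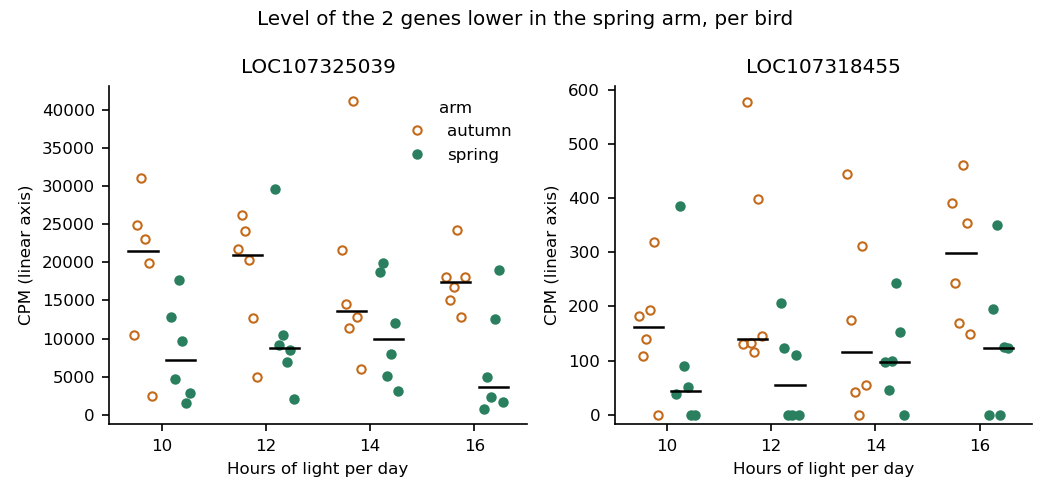
Level of LOC107325039 and LOC107318455 in each bird (CPM of the library total, linear axes) by hours of light, autumn as open and spring as filled circles, with a black bar at the median of 6 birds. The spring median is the lower at each day length for both genes, and 20 and 19 of 24 spring birds lie below the autumn median of their own day length.

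CGA and FSHB did not pass over the whole arms, and their difference between the arms varied with day length. In all, for 4 of 1339 genes (0.299%) the difference varied with day length at an adjusted p under 0.05. These were CGA, FSHB, which encodes the beta subunit of follicle-stimulating hormone, NTS, which encodes the neuropeptide neurotensin, and LOC107319226, a protein-coding locus whose neighbours are BBS2 and NUP93. In each, the spring birds were far above the autumn birds at 12 h of light and below them in the mean at 14 h and at 16 h, except that FSHB had the higher spring mean at 16 h. Of these lower spring levels, that of NTS at 14 h passed when tested at its own day length, and the others did not. The edgeR interaction F on 3 degrees of freedom was 27.5 for LOC107319226 (adjusted p = 1.71e-08), 13.8 for CGA (9.36e-06), 17.3 for FSHB (7.47e-05) and 12.9 for NTS (0.000997). These 4 calls also held with the library total as a covariate, RLE scaling, no scaling factor and DESeq2, when any 1 bird was left out and without the highest-numbered birds. With limma on log2 of the deposited CPM none of the 4 passed (adjusted p from 0.209 to 1.000). In edgeR, the NTS call was also lost without libraries of under 2000 genes (adjusted p = 0.0713).

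CGA was 8526 ± 7329 CPM in the autumn arm and 11599.6 ± 6982 CPM in the spring arm (SD, n = 24 each), a log2 fold change of 0.61 ± 0.28 that did not pass (SE; edgeR, adjusted p = 0.591). At 10 h its lowest, median and highest bird had 844, 2712 and 4149.6 CPM in autumn and 4325, 5936 and 9173 CPM in spring. At 12 h these were 1446, 1955 and 3211 CPM in autumn and 10801, 14108 and 31324 CPM in spring. At both day lengths every spring bird lay above every autumn bird. At 14 h the values were 10133, 14640.0 and 26159 CPM in autumn and 7215, 11768 and 24942 CPM in spring, and at 16 h 8427, 13627 and 18774 CPM in autumn and 3552, 8864 and 24869 CPM in spring, with wide overlap. The log2 fold change was 1.14 ± 0.44 at 10 h, 2.80 ± 0.46 at 12 h, -0.59 ± 0.42 at 14 h and -0.60 ± 0.42 at 16 h (SE), of which the difference at 12 h passed (edgeR, adjusted p = 1.45e-06). At 10 h the test over all genes did not pass for CGA with edgeR (adjusted p = 0.994) and did with DESeq2, which called no other gene there.

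FSHB had the same pattern at a lower level and with a wider swing. It was 343 ± 449 CPM in autumn and 734 ± 868 CPM in spring (SD, n = 24 each; log2 fold change 0.80 ± 0.49 SE, edgeR adjusted p = 0.738). At 12 h its lowest, median and highest bird had 0, 44.2 and 180.2 CPM in autumn and 735, 1509.6 and 3694 CPM in spring, with no overlap. At 14 h these were 333, 773 and 1691 CPM in autumn and 0, 314 and 482 CPM in spring, where 4 of 6 spring birds lay below every autumn bird. At 10 h FSHB was seen in 3 of 6 autumn birds (highest 77.7 CPM) and 4 of 6 spring birds (highest 579 CPM), and at 16 h the ranges ran from 113 to 1088 CPM and from 123 to 1230.0 CPM. The log2 fold change was 2.13 ± 1.08 at 10 h, 4.27 ± 0.63 at 12 h, -1.61 ± 0.57 at 14 h and -0.17 ± 0.61 at 16 h (SE), and passed at 12 h (edgeR, adjusted p = 1.31e-05).

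LOC107319226 was at most 180.3 CPM in any bird of either arm at 10 h. At 12 h it ranged from 0 to 146 CPM in autumn (median 46.4), against 0 to 2754 CPM in spring (median 1724), where 5 of 6 birds lay above every autumn bird and 1 bird was at 0. The bird at 0, 12Lv replicate 6, had a library total of 6509, 962 genes detected and the highest number of its photoperiod. At 14 h the order was the opposite, with 777 to 1871 CPM in autumn (median 1172) and 390.1 to 837 CPM in spring (median 594), and at 16 h the medians were 794 and 383 CPM. The log2 fold change was 4.66 ± 0.57 at 12 h (SE; edgeR, adjusted p = 1.40e-08), -1.38 ± 0.44 at 14 h and -1.06 ± 0.46 at 16 h, and 0.20 ± 0.47 over the whole arms (adjusted p = 0.973). Without the 12 h birds the whole-arm value was -1.09 and passed (adjusted p = 0.0161), where the other alternatives gave adjusted p values up to 0.999.

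NTS was nearly absent from autumn birds on the shorter days and present in all 6 spring birds at 12 h. It had 2 counts in 12La, both in 1 bird, and 27 counts in 12Lv, where the 6 birds ranged from 154 to 306 CPM. The ratio of these counts over the group totals was 25.7 (95% exact interval 6.47 to 223, which covers counting error only), and the fitted difference did not pass (edgeR, adjusted p = 0.0534). Alternatives were split. This 12 h difference passed with DESeq2 (adjusted p = 0.0181) and, in edgeR, with RLE scaling (0.0159), no scaling factor (0.00555) or no filter (0.00936). So it did without the highest-numbered birds (0.00884) and with the order of the birds' label numbers as a block (1.32e-05). The library total as a covariate, summed counts and leaving out shallow libraries gave no call. At 10 h there was 1 count in autumn and 4 in spring, a ratio of 7.15 (0.708 to 352). At 14 h all 6 spring birds (0 to 190.1 CPM, median 94.2) lay below all 6 autumn birds (222 to 2216 CPM, median 435). Of the spring birds, 14Lv replicate 6 was at 0 with a library total of 4251, where 1 count would have exceeded the lowest autumn bird. The log2 fold change at 14 h was -3.32 ± 0.69 (SE; edgeR, adjusted p = 0.0202). That call was lost without 14Lv replicate 2 or 3 (highest adjusted p = 0.15), without the highest-numbered birds, with the library total as a covariate and with DESeq2. Neurotensin is also a neural peptide, and the markers of glia and neural lobe, a list that includes NTS itself, are given further on.

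**Figure D4:**
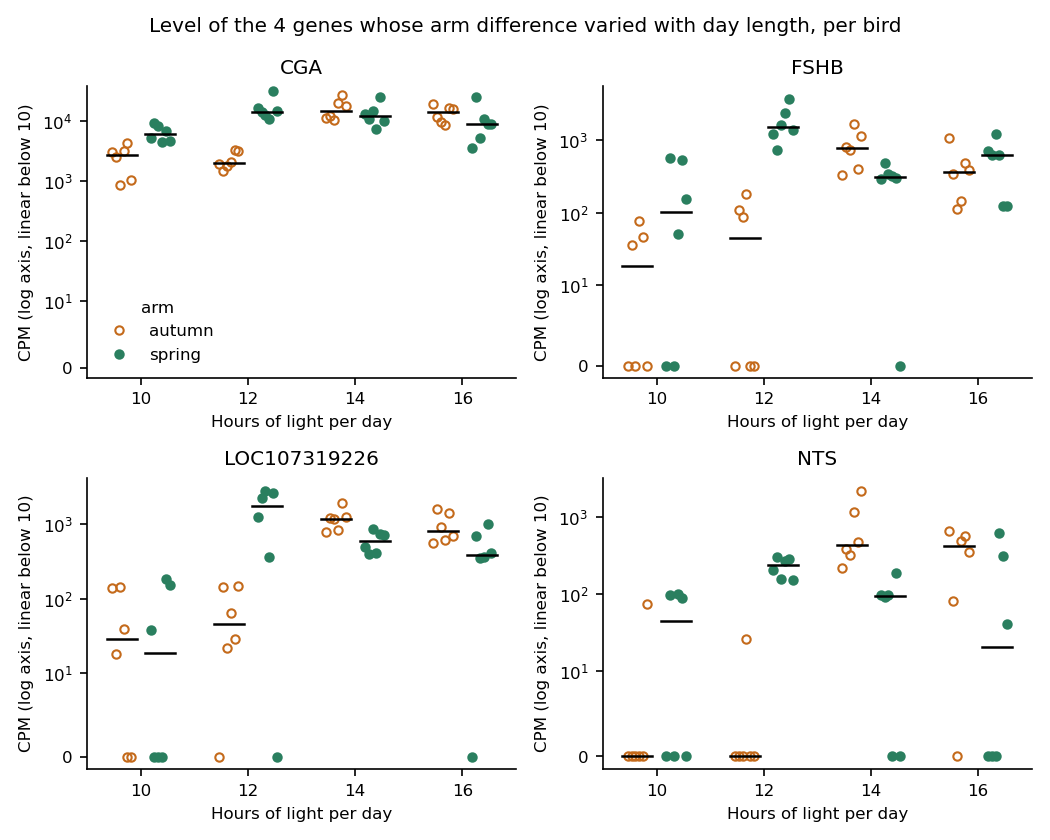
Level of CGA, FSHB, LOC107319226 and NTS in each bird (CPM, log axis that is linear below 10) by hours of light, autumn as open and spring as filled circles, with a black bar at the median of 6 birds. At 12 h all spring birds lie above all autumn birds for CGA, FSHB and NTS and 5 of 6 for LOC107319226, and at 14 h the spring medians are the lower.

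The remaining pituitary hormones that were matched by symbol had no difference between the arms that passed in the main test. PRL, the gene of prolactin, was 28478 ± 19334 CPM in autumn and 21938 ± 14760.1 CPM in spring (SD, n = 24 each). Its log2 fold change was -0.60 ± 0.24 (SE; edgeR, adjusted p = 0.557), and 16 of 24 spring birds lay below the autumn median of their day length. By day length it was -0.37 ± 0.46 at 10 h, 0.03 ± 0.45 at 12 h, -0.76 ± 0.45 at 14 h and -1.28 ± 0.46 at 16 h (SE), and none passed (edgeR, adjusted p = 0.635 at 16 h). A call came when the order of the birds' label numbers within a photoperiod was a block, a setting tried after seeing the data. PRL at 16 h was then -1.44 (edgeR, adjusted p = 0.00302). At 14 h the lowest, median and highest bird had 25047, 52873 and 56625 CPM in autumn against 9645, 36884 and 48395 CPM in spring, and at 16 h 18155, 35947 and 67126 CPM against 8656, 13623 and 49378 CPM. PRL was itself one of the 57 genes that were higher in deeper libraries, by 0.54 log2 units per doubling of the library total (edgeR, adjusted p = 0.00484), and with the total as a covariate its arm difference was 0.04.

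POMC, the precursor of adrenocorticotropin, was 19144 ± 9936 CPM in autumn and 23427 ± 16479 CPM in spring, and its log2 fold change was 0.02 ± 0.24 (SE; edgeR, adjusted p = 0.998). TSHB, which encodes the beta chain of thyrotropin, was 106 ± 81.6 CPM and 116 ± 139.5 CPM, with 0.05 ± 0.30 (adjusted p = 0.997), and its interaction with day length did not pass (adjusted p = 0.999). CHGA, an acidic protein of secretory granules, was 12124 ± 5467 CPM and 12424 ± 6881 CPM, with -0.20 ± 0.23 (adjusted p = 0.882; n = 24 birds per arm for all 3). LHB and GH were not matched by symbol and were not analysed under those names. Whether LOC107325039 or another locus without a gene name encodes either of them was not tested. Thus 6 genes of the hormone list, which includes the granule protein gene CHGA, were tested and 0 passed over the whole arms in either direction. Their median log2 fold change was 0.03 against -0.14 over all genes.

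Of 33 receptors and regulators of hormone release listed, 4 were deep enough to test and 0 passed in edgeR. GHRHR, the receptor for growth-hormone-releasing hormone, had a log2 fold change of -0.49 ± 0.25 (adjusted p = 0.622) and ESR1, the oestrogen receptor alpha, of 0.38 ± 0.31 (0.816). PRLR, the prolactin receptor, had -0.11 ± 0.35 (0.979, all ± SE). THRB, a thyroid hormone receptor, had -0.002 (0.994), with SEs of 0.74 to 0.88 at single day lengths.

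**Figure D5:**
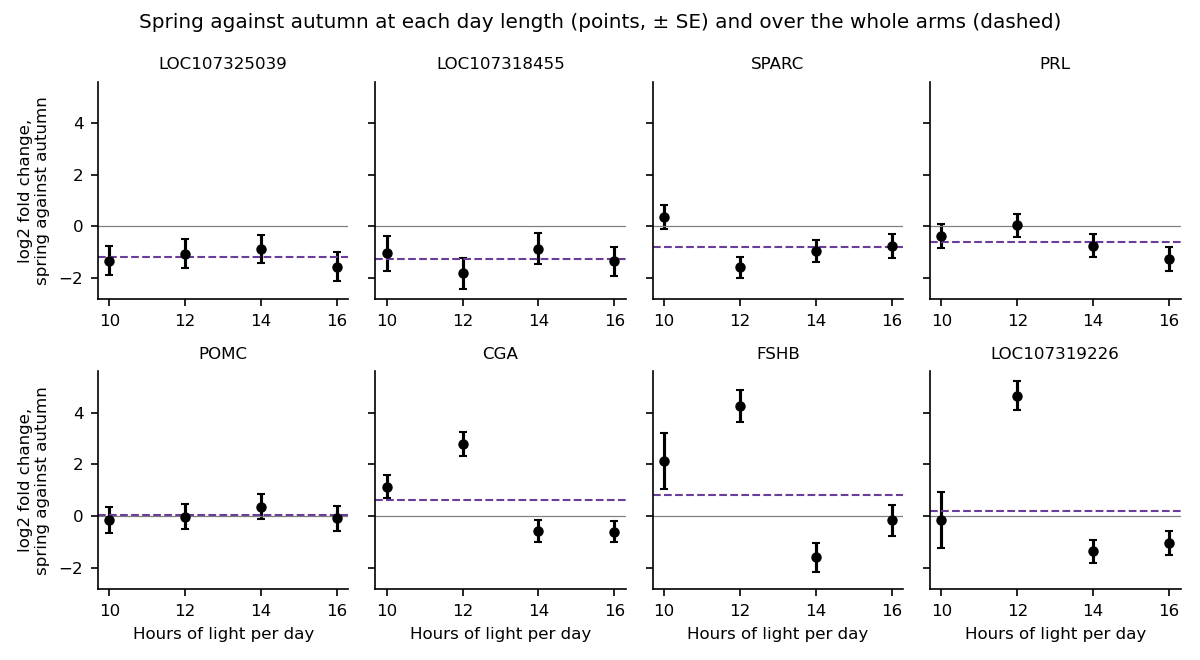
Log2 fold change of spring against autumn at each day length (points, with bars of 1 SE) and over the whole arms (dashed line) for 8 genes. LOC107325039 and LOC107318455 lie below 0 at all 4 day lengths, CGA, FSHB and LOC107319226 peak at 12 h at 2.80, 4.27 and 4.66, and POMC stays within 1 SE of 0.

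Tested 1 day length at a time, calls were concentrated at 12 h. None of 1339 genes passed at 10 h (0%; 43 at an unadjusted p under 0.05 in edgeR, and 1 adjusted call in DESeq2, which is CGA), 6 at 12 h (0.448%), 2 at 14 h (0.149%) and 1 at 16 h (0.0747%). Beside CGA, FSHB and LOC107319226, the calls at 12 h were LOC107310337, higher in spring, and COL1A2 and SPARC, lower in spring. LOC107310337 had 16 counts in 2 of 6 birds of 12Lv and 0 in 12La, at least 10.2-fold higher against a floor of 3 counts over the group. The call was lost without 12La replicate 4, 12Lv replicate 3 or 12Lv replicate 5 and with DESeq2. At 14 h the second call beside NTS was LOC107306747, with 26 counts in 3 of 6 spring birds and 2 in autumn, a ratio of 22.6 (95% exact interval 5.65 to 196). Of the spring counts, 21 came from 14Lv replicate 2. The call was lost when any 1 of 10 birds was left out (highest adjusted p = 0.934) and passed in 3 of 10 other settings. Settings without the call were the library total as a covariate, summed counts, no filter, RLE scaling and DESeq2. Leaving out libraries of under 2000 genes or the highest-numbered birds also lost it. At 16 h LOC107321569, a long non-coding RNA near TAP1, had 35 counts in autumn, with all 6 birds positive, and 0 in spring, at least 4.70-fold lower against the same floor. It was lost when any 1 of 5 birds was left out, with RLE scaling and with DESeq2.

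Genes of the connective tissue stood among those next in line. Behind the 2 called genes, the smallest p values for a lower level in spring belonged to LOC107324454 (-1.11 ± 0.29, adjusted p = 0.0746), LOC107323845 (-0.66 ± 0.18, 0.0773), SPARC (-0.80 ± 0.22, 0.0859) and LOC107321569 (-1.39 ± 0.39, 0.0859), followed by LOC107321530 beside TAP2 (-1.18 ± 0.36), COL1A2 (-1.15 ± 0.36), LOC107310625 (-0.83 ± 0.27) and CREB3L2, a transcription factor of the secretory pathway (-0.96 ± 0.32; log2 fold change ± SE). None of these 8 passed in the main edgeR test. SPARC, a secreted matrix glycoprotein, was 445 ± 321 CPM in autumn and 254 ± 177 CPM in spring (SD, n = 24 each). COL1A2, a chain of type I collagen, was 144 ± 222 and 77.8 ± 79.5 CPM.

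Of the matrix genes tested, SPARC and COL1A2 passed at 12 h, and both calls were lost when single birds were left out. For SPARC the lowest, median and highest bird at 12 h had 0, 653 and 1391 CPM in autumn and 0, 211 and 376 CPM in spring, and the log2 fold change was -1.60 ± 0.42 (SE; edgeR, adjusted p = 0.032). It was 0.34 ± 0.46 at 10 h, -0.96 ± 0.43 at 14 h and -0.77 ± 0.46 at 16 h, and the interaction with day length did not pass (adjusted p = 0.999). Without 12La replicate 3, which had the most, the 12 h value was -1.21 (adjusted p = 0.773), and 7 birds in all ended the call when left out. It was also lost in 6 of 11 other settings, with the library total as a covariate, summed counts, no filter, no scaling factor or DESeq2 and without libraries under 10000 summed counts. For COL1A2 the 12 h value was -2.68 ± 0.65 (SE; edgeR, adjusted p = 0.0108), and without 12La replicate 1, at 1107 CPM, it was -2.14 (adjusted p = 0.218). The COL1A2 call was also lost without 12Lv replicate 3 or 5 and with summed counts, no filter or DESeq2. Of 20 fibroblast and matrix genes listed, 7 were tested, 0 passed over the whole arms and all 7 had a negative fold change, as had 68.8% of all genes, with a median of -0.48 against -0.14 over all genes. The summed level of the 19 list genes in the table ran from 590 to 5537 CPM in autumn (median 1210.1) and from 0 to 2169 CPM in spring (median 1253). In bulk tissue, fewer cells of a type and less RNA per cell cannot be told apart.

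Higher in spring, 10 genes were named by the size of p and none passed in the main edgeR test. The first was LOC107309559, next to MC4R, at 21.7 ± 37.4 CPM in autumn and 92.6 ± 106 CPM in spring (SD, n = 24 each), and its log2 fold change was 1.59 ± 0.42 (SE; adjusted p = 0.0746). It was detected in 9 autumn and 14 spring birds. LOC107309559 passed in edgeR without the 12 h birds (1.90, adjusted p = 0.0493) and in 5 of 48 fits with 1 bird left out. LOC107306747 (1.35 ± 0.43) and LOC107310337 (1.35 ± 0.51) followed, then CTCF, an insulator-binding protein (0.86 ± 0.35), PAG1, a membrane adaptor of Src-family kinases (1.02 ± 0.45), CGA, C4H4orf19 (0.70 ± 0.32), EIF3M, a subunit of translation initiation factor 3 (0.57 ± 0.26), KCNJ1, an inward-rectifier potassium channel (0.69 ± 0.33), and NKTR, a cyclophilin-like protein (0.72 ± 0.35). Their adjusted p values lay between 0.0746 and 0.619.

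No tested member of the 22 gene lists passed over the whole arms in the main test, where 2 of 1339 genes (0.149%) passed in all. With so few calls, this says little about any list. The erythrocyte, endothelial, immune and mitochondrially encoded lists had 0 genes tested. Of 7 secretory granule genes, 6 were below 0 (85.7%, against 68.8% of all genes), with a median of -0.25. CHGB, a granin, was 1749 ± 904 CPM in autumn and 1323 ± 864 CPM in spring (SD, n = 24 each), and its log2 fold change was -0.67 ± 0.23 (SE; edgeR, adjusted p = 0.405), and SCG3, another granin, had -0.39 ± 0.20 (0.62). The list median was 0.02 with the library total as a covariate. Of 74 cytosolic ribosomal protein genes, 60 were below 0 (81.1%, against 68.8% of all genes) and 9 of these had an unadjusted p under 0.05 in edgeR (12.2%, against 7.02% of all genes), with a median of -0.15 beside the -0.14 of all genes, which turned to 0.01 with RLE scaling and 0.09 without a factor. For 28 genes of translocation and folding in the endoplasmic reticulum the median was -0.21, with HSP90B1, a chaperone, at -0.51 ± 0.23 (SE; adjusted p = 0.578). For 49 nuclear-encoded oxidative phosphorylation genes it was -0.12, and for 27 translation factors -0.17. The median of these 3 lists was between -0.09 and 0.02 with RLE scaling.

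Over the whole arms, the lists of pituitary transcription factors, clock genes and stress genes had median log2 fold changes of -0.13, 0.05 and -0.13. The median of all genes was -0.14, and single members lay further from it. POU1F1, which drives the lactotroph, somatotroph and thyrotroph lineages, had a log2 fold change of -0.21 ± 0.20 (SE; edgeR, adjusted p = 0.85). NR5A1, a gonadotroph factor, had -0.15 ± 0.33 (0.963) and LHX3 -0.17 ± 0.29 (0.938). Of 4 clock genes tested, NR1D2, a repressor of the clock loop, had 0.40 ± 0.39 and PER3 0.12 ± 0.39. FKBP5, a glucocorticoid-induced co-chaperone and the one gene of its list deep enough to test, had 0.74 ± 0.40 (adjusted p = 0.652). Among 5 immediate early and stress genes EGR1, which also acts in gonadotrophs, had -0.13 ± 0.50 (0.985). By day length EGR1 ran from -1.72 ± 1.13 at 10 h to 2.40 ± 0.98 at 12 h (SE), and neither passed in the main test.

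Markers of other cell types showed 1 bird that stood apart. MBP, a myelin protein, differed by a log2 fold change of -2.47 ± 0.83 (SE; edgeR, adjusted p = 0.386), and 153 of its 207 counts came from 12La replicate 5, at 4348 CPM against 1055 CPM in the next bird. Without that bird the value was -0.83 (adjusted p = 0.691). The summed level of the 14 glia and neural lobe genes in the table ran from 217 to 5712 CPM in autumn (median 741) and from 0 to 1156 CPM in spring (median 498), and 3 were tested, MBP, STMN2 and NTS. This sum includes NTS, and a sum without it was not taken. For 8 folliculo-stellate genes the summed medians were 726 and 717 CPM, for 9 immune genes 141 and 80.4 CPM, for 11 endothelial genes 136 and 151 CPM, and for 3 erythrocyte genes 28.7 and 0 CPM, in autumn and spring. Their part in the results above was not tested, beyond the values without single birds.

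The genes best known for reading day length fell below the filter on low counts. DIO2, whose product converts thyroxine to its active form, had 32 counts in 13 autumn birds and 26 counts in 13 spring birds. EYA3, a transcriptional coactivator of the photoperiodic response, had 19 counts in 13 birds and 8 counts in 6. MTNR1B, a melatonin receptor, had 17 and 6 counts, and TEF, a clock-output transcription factor, 56 and 28, while OPN5, an opsin, had 1 count in each arm. A difference between the arms in these genes was therefore not tested in the main fit. In edgeR without a filter, none of them was among the 10 genes called over the whole arms.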

How the data were processed

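The authors deposited estimated counts per transcript and a CPM table. The tools named in the submitters' processing notes are edgeR 3.24.3, Salmon 0.14.2 and minimap2 2.17, with roles and genome build not given in the sources used here. Values in the CPM table, as deposited by the authors, are a normalised signal: its columns do not sum to 1000000, and by comparison with the counts each is scaled by a factor of its own. They served only as an alternative. All 40282 transcripts matched RefSeq's Coturnix japonica 2.1 gene table by accession.

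Estimated counts were rounded, and each gene was given the count of its largest transcript, in case reads were entered on several transcripts. Of 7372 values of 3 or more in genes with 2 transcripts, 72.6% were equal within 0.01. Whether such reads were entered on each transcript or divided between them was not tested. With summed counts neither whole-arm call passed (edgeR, adjusted p = 0.0599 for LOC107325039 and 0.537 for LOC107318455). Genes were filtered by edgeR's filterByExpr at a minimum count of 3, which left 1339 of 16448 for edgeR 4.0.16's quasi-likelihood F-test (R 4.3.3; robust, TMM scaling) with hours of light as a block and 43 residual degrees of freedom. The interaction and the tests at single day lengths used 1 mean per photoperiod (40 degrees of freedom). Standard errors are the fold change over the square root of F, which is unstable for a value very near 0, so none is given for THRB over the arms. Adjustment was by Benjamini-Hochberg, across all genes tested. Levels are CPM of the largest-transcript total. Library measures were compared by permutation (100000 resamples, or exact within a day length). The whole-arm test was run on simulated counts with known fold changes, as many up as down, and no effect of day length. That check does not bear on the choice of scaling. Alternatives included limma 3.58.1 on log2(deposited CPM + 1) and DESeq2 1.42.0.

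The members, lists and tests were chosen with earlier results of these data known. Named genes were up to 10 per direction by p, the tested hormones and receptors, LOC107319226, up to 5 interaction genes, the gene with the largest share of a library and 4 members of each list, of which some are not reported here. Calls at single day lengths beyond these, and the genes below the filter, were named after their values were seen. Replicate numbers follow the order of deposition and the labels state no pairing. After seeing the data, the order of the birds' label numbers within a photoperiod was tried as a block, and the highest-numbered birds were left out. Intervals and floors cover counting error only.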

Additional observations from a re-analysis of the deposited data

Results flagged for a closer look

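In 4 genes the difference between the arms depended on day length by a test of that dependence. The edgeR interaction F was 27.5 for LOC107319226, 17.3 for FSHB, 13.8 for CGA and 12.9 for NTS.

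Of 80 sets of 6 birds checked with Dixon's criterion, 11 had 1 bird far from the other 5. Chance alone flags about 1 in 20 where values are normally distributed. Levels that rest on few counts are not, so the 11 cannot be set against that rate. For CGA these were 12Lv replicate 5 at 31324 CPM (others 10801 to 15955) and 16Lv replicate 2 at 24869 CPM (others 3552 to 10579). For LOC107325039 it was 12Lv replicate 1 at 29631 CPM (others 1997 to 10418), and for LOC107318455 10Lv replicate 2 at 386 CPM (others 0 to 90.4). NTS was seen in a single bird in 12La (replicate 4, 25.7 CPM, 2 counts) and in 10La (replicate 6, 73.7 CPM, 1 count). PRL was lowest in 12Lv replicate 6 at 4302 CPM (others 23750 to 33072). The library total of 10La replicate 2 was 55213 (others 13562 to 25731). LOC107307159 took 47.7% of counts in 12La replicate 6, 49.4% in 10Lv replicate 6 and 46.2% in 14Lv replicate 6, against 14.2% to 26.5% in the other birds of these photoperiods. The NTS bird of 10La, the PRL bird of 12Lv and these last 3 birds each have the highest number of their photoperiod.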

How the results depend on the processing

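Every alternative was fixed with earlier results of these data known, and the depth-matched libraries, the limma interaction fit, the settings on the bird number and the single birds left out of the interaction and day-length tests were added after seeing the data. Over the whole arms, 2 genes passed, and 0 did with the library total as a covariate, a minimum count of 10 (199 genes tested), RLE scaling, no scaling factor, DESeq2 or without the 16 h birds, 1 without the 10 h birds (SPARC) or at matched depth, 4 without the 14 h birds, 10 without a filter and 70 with limma on deposited CPM, all lower in spring; DESeq2 gave 63 genes at an unadjusted p under 0.05. Without 12 h, 3 genes passed. Of these, LOC107309559 was higher in spring (1.90, edgeR adjusted p = 0.0493), and LOC107319226 was reversed to -1.09. With summed counts the 2 calls were AOAH and KIF3A. The interaction gave 0 calls with limma. In edgeR, the NTS interaction was also lost without libraries of under 2000 genes (adjusted p = 0.0713). At 10 h DESeq2 gave 1 call. At 12 h summed counts gave 3. At 14 h there were 0 with the covariate, summed counts, a minimum count of 10, DESeq2 and without libraries of under 2000 genes, and 1, NTS, without a filter or with RLE scaling. At 16 h there were 3 without a filter and 0 with summed counts, RLE scaling, no scaling factor, DESeq2 and without libraries of under 2000 genes. Without the highest-numbered bird of each photoperiod there were 0 calls at 14 h, and no other count moved by over 1.5 times. Blocking on the order of the birds' label numbers, there were 6 calls for the arms (the 2 genes with LOC107324454, LOC107323845, SPARC and LOC107321569), 9 for the interaction, 11 at 12 h and 5 each at 14 h and 16 h. PRL was among those at 16 h, and EGR1 among those of the interaction and at 12 h. Leaving out 1 bird gave 1 to 5 calls for the arms, 4 to 7 for the interaction, 4 to 8 at 12 h, 0 to 4 at 14 h and 0 to 1 at 16 h. LOC107325039 passed in all 48 of these fits. Of 32 genes followed one by one, 11 changed sign in some setting without passing in it, most often THRB, POMC, TSHB and PRLR, whose values lie near 0. Depth limits all of this: most genes were too shallow to test.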
